A study of Mus musculus with 6 samples.

Results

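How 2 partially reprogrammed mouse lines, pre2-2 and pre3, differed in their response to siRNA transfection was measured from RNA-seq counts of 20325 genes. All 6 libraries of the series were used. For each line, the 2 transfected libraries were set against its 1 untransfected library, and the genes described are those with the same direction of change in both transfected libraries of a line and a small or opposite change in the other line. Of 11491 genes with enough counts to test, 151 had this pattern with higher levels in transfected pre2-2, 15 with lower levels in transfected pre2-2, 26 with higher levels in transfected pre3 and 29 with lower levels in transfected pre3.

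The series was made to follow knockdown of Tet1, a dioxygenase that oxidises 5-methylcytosine, in pre-iPSCs kept with vitamin C. Pre-iPSCs are cells stopped part of the way between fibroblasts and induced pluripotent stem cells. Both lines were at passage 10, came from OG2 transgenic fibroblasts, whose transgene is a GFP reporter under Pou5f1 control, and had a mixed background of 129SVJ, C57B6 and CBA. All 6 libraries, the untransfected ones included, came from cells in embryonic stem cell medium with LIF and vitamin C at 50 µg/ml, and each line gave 1 library without siRNA, 1 with a control siRNA and 1 with an siRNA against Tet1 (siTet1). RNA was taken 48 h after transfection and 36 h after vitamin C by the sample labels, whereas the series text places vitamin C at 16 h and RNA at 32 h after that. The labels call the cells fibroblasts in one field and pre-iPSCs in another, and do not say whether the cultures of a line were grown apart. A mock transfection without siRNA is not among these samples.

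Transfected RNA enters cells through lipid carriers, and RNA sensors in the cytoplasm and in endosomes can answer it with interferon, which raises antiviral proteins and the machinery that shows peptides on MHC class I. Fibroblast-like cells also adjust a contractile and matrix programme, driven by TGF-beta and by serum response factor (SRF), when their density, adhesion or serum supply changes. In reprogramming, that mesenchymal programme is shut down as cells become epithelial and then pluripotent.

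Library totals ran from 1868640 to 2582803 expected counts, the largest being untransfected pre2-2, and 3 counts were worth 1.18 to 1.60 CPM, counts scaled to a common library total. Tet1 stood at 252 and 244 CPM in the untransfected and control siRNA libraries of pre2-2 and at 151 CPM in its siTet1 library. In pre3 it stood at 204, 251 and 158 CPM in the same order, so both siTet1 libraries were the lowest of their line. The reprogramming factors were high in all 6 libraries and their change on transfection did not pass any test between the lines: Pou5f1 lay between 1033 and 1219 CPM in pre2-2 and between 5796 and 6591 CPM in pre3. Nanog, Esrrb and Lin28a, which mark full pluripotency, were at 0 in at least 1 library each and at most 3.51 CPM in any.

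A larger share of genes moved in pre2-2 than in pre3. Among the 9494 genes with a mean of at least 10 CPM, the control siRNA library of pre2-2 had 262 genes at least 2-fold above its untransfected library and 24 at least 2-fold below it. The control siRNA library of pre3 had 65 above and 24 below. The siTet1 libraries had 364 above and 74 below in pre2-2, against 153 and 47 in pre3. As a measure of spread, siTet1 against control siRNA within a line gave 99 genes above and 52 below in pre2-2 and 112 above and 54 below in pre3, similar numbers in both lines.

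Tested per line with edgeR's quasi-likelihood test, where a gene is called at a Benjamini-Hochberg adjusted p under 0.05, 82 genes rose in transfected pre2-2 and 2 fell, which is 0.714% and 0.0174% of the genes tested. In pre3 no gene was called (0%), with 449 genes (3.91%) at an unadjusted p under 0.05 against 1486 (12.9%) in pre2-2. DESeq2 called 47 genes in pre2-2 and 1 in pre3, and limma-voom 88 and 0. The replicate block described below gave 721 and 112 with edgeR, for the change at the control siRNA instead of that of both transfected libraries. With the block 4.69% of the genes tested were called higher and 1.58% lower in pre2-2. In pre3 it called 53 genes (0.461%) higher and 59 lower. Of the 82 genes that rose in pre2-2, 62 were also higher in both transfected pre3 libraries, 4 were lower in both and 16 were split. Their median log2 change was 1.37 in pre2-2 and 0.36 in pre3, and 76 of them had the smaller change in pre3. The 82 were chosen on the pre2-2 values, so a smaller value in the other line is in part fixed by that choice. Leaving out either the control siRNA or the siTet1 library of pre2-2 left 0 calls in pre2-2.

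The difference in response between the lines was tested as an interaction over all 6 libraries, expressed as the log2 change in pre3 minus that in pre2-2. It called 1 gene, 0.00870% of those tested, and 613 genes (5.33%) had an unadjusted p under 0.05, of which 368 had the lower change in pre3. That share is near the one a threshold of 0.05 gives where no gene differs. The spread in this test is the one between the control siRNA and siTet1 libraries of a line and so contains any effect of siTet1. When siRNA identity was fitted as a replicate block common to both lines, 259 genes were called, 170 with the lower change in pre3 (1.48%) and 89 with the higher change in pre3 (0.775%). That fit leaves 1 residual degree of freedom and a spread shared by all genes, with infinite prior degrees of freedom. Its p-values thus hold no spread of single genes or of cultures. Its calls are given below as a description beside the test without the block. Within a line, its values are the change at the control siRNA, with the siTet1 effect taken as equal in both lines. For Tet1 in pre2-2 that value was -0.034, against -0.33 without the block. Each untransfected library is single, so transfection cannot be told apart from a property of that library or its culture, and the p-values measure only the spread between these libraries.

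The 1 gene called was Amd2, a near-identical copy of Amd1, the gene of S-adenosylmethionine decarboxylase in polyamine synthesis. Amd2 stood at 0.392 CPM in untransfected pre2-2, which is 1 rounded count, and at 201 and 158 CPM in its control siRNA and siTet1 libraries. In pre3 it stood at 198 CPM untransfected and at 247 and 253 CPM when transfected, so 1 library out of 6 lacked it. The ratio of transfected to untransfected counts in pre2-2 was 456, with an exact 95% interval of 81.6 to 18028 that covers counting error only, and the fitted interaction was -8.32 (SE 0.51, edgeR adjusted p = 0.000231). Amd2 shared 85.67% of its 50-base words with Amd1 in a mouse transcript reference. In the same untransfected pre2-2 library Amd1 held 235 CPM, whereas in the control siRNA library of that line it held 0. The sum of both genes was 235, 201 and 196 CPM in pre2-2 and 234, 247 and 253 CPM in pre3. With the counts of Amd1 and Amd2 added before the fit, the interaction was 0.32 (SE 0.19, adjusted p = 0.902) and no gene was called.

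**Figure D1:**
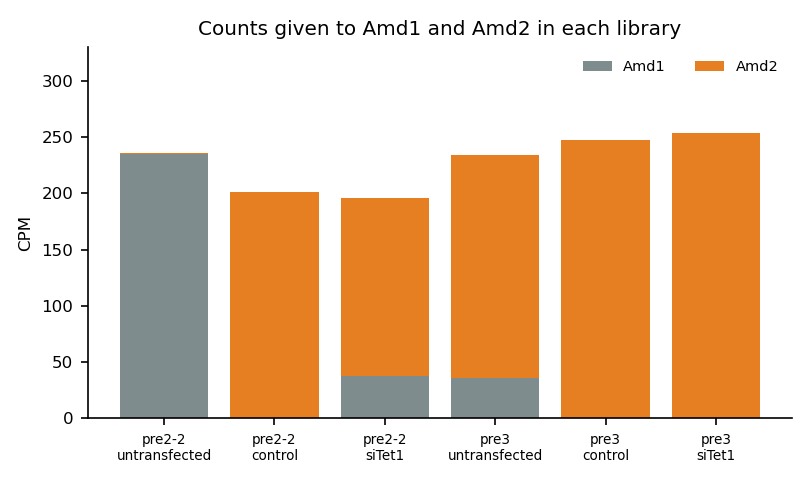
CPM assigned to Amd1 (grey) and Amd2 (orange) in each of the 6 libraries, stacked, 1 library per bar and no error bars. The total is 196 to 253 CPM in every library, while untransfected pre2-2 has nearly all of it under Amd1 and the other 5 libraries have most of it under Amd2.

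Genes were then classed by size alone. A change is the log2 CPM of a transfected library minus that of the untransfected library of its line, with a prior count of 2. A gene was large in a line when both libraries changed by at least 1 in the same direction, and small in the other line when neither changed by 0.5 or more in that direction. The 4 classes held 1.31% (higher in pre2-2), 0.131% (lower in pre2-2), 0.226% (higher in pre3) and 0.252% (lower in pre3) of the genes tested, and 24 of their genes (0.209%) moved by at least 0.5 the other way in both libraries of the other line. With a mean of at least 10 CPM the classes held 63, 4, 11 and 2 genes, so the class of lower genes in pre3 was made up almost wholly of weakly expressed genes. Both libraries of a line share 1 untransfected library, and the same direction in both is therefore no independent support. Over all genes tested, 35.7% were higher and 37.5% lower in both transfected libraries of pre2-2, and 34.4% higher and 33.4% lower in both of pre3, the background for such counts below. At the edge of the class higher in pre2-2, Agrn was just inside with changes of 1.00 and 1.01, and Serpinf1 was just outside with 1.30 and 0.98.

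**Figure D2:**
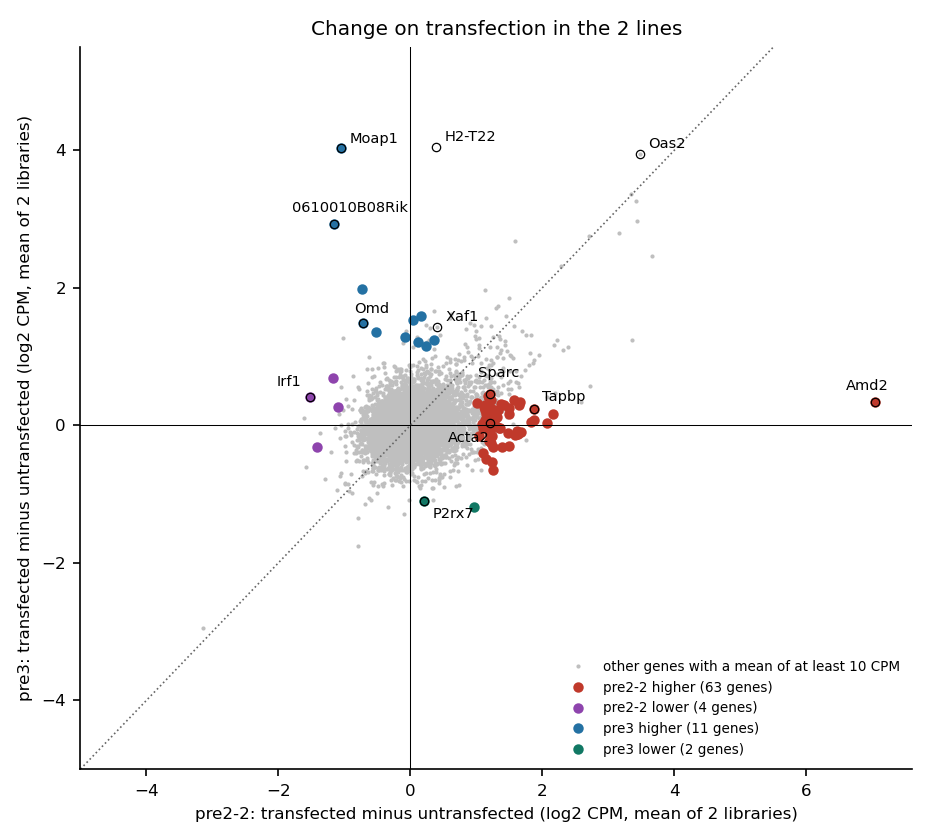
Mean log2 change on transfection in pre2-2 (horizontal) against pre3 (vertical) for genes with a mean of at least 10 CPM, 1 point per gene, coloured by class, with some named genes circled and the diagonal dotted. The 63 red genes lie to the right near a pre3 change of 0, Amd2 is the far point, and Oas2 lies near the diagonal with a rise in both lines.

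The class higher in pre2-2 included genes of TGF-beta signalling, the actin cytoskeleton and the matrix. Tgfb3, a TGF-beta ligand, stood at 8.62, 25.6 and 26.2 CPM in pre2-2 and at 13.3, 13.3 and 11.1 CPM in pre3. The transfected pre2-2 libraries were thus above the other 4, but the difference within pre2-2 did not pass the test without the block. Its fitted log2 change was 1.60 (SE 0.34, edgeR adjusted p = 0.0807). For the control siRNA change, the replicate block gave an edgeR adjusted p of 0.000488. The interaction was -1.72 (SE 0.49, edgeR adjusted p = 0.902, and 0.049 with the replicate block). Of 26 tested TGF-beta, Nodal and BMP target genes, 3 rose in pre2-2, among them Inhba and Pmepa1, and 0 in pre3. With the replicate block the counts for the control siRNA change were 10 and 0. Inhba, the activin A subunit and a TGF-beta family ligand, stood at 28.6, 87.3 and 90.4 CPM in pre2-2 and at 3.06, 4.80 and 5.83 CPM in pre3. Median changes of the 26 genes were 0.75 and 0.66 in the control siRNA and siTet1 libraries of pre2-2 and 0.07 and 0.27 in those of pre3.

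The contractile genes moved alike in both transfected pre2-2 libraries. Acta2, smooth muscle actin, stood at 244 CPM in untransfected pre2-2 and at 629 and 506 CPM after transfection, against 63.3, 60.3 and 70.0 CPM in pre3. Its interaction was -1.20 (SE 0.27, edgeR adjusted p = 0.686; 2.79e-06 with the replicate block). Zyx, a focal adhesion protein, stood at 99.1, 222 and 222 CPM in pre2-2 and at 45.5, 57.1 and 54.6 CPM in pre3. All 27 tested contractile and SRF target genes were higher in both transfected pre2-2 libraries, and 7 were called there: Acta2, Actn1, Ctgf, Filip1l, Tagln, Thbs1 and Zyx. In pre3, 15 were higher in both libraries and 2 lower in both. The list's median changes were 0.85 and 0.91 in pre2-2 and 0.24 and 0.14 in pre3, beside medians over all genes tested of between -0.01 and 0.00 in the 4 libraries. With the replicate block, 11 of the 27 had a lower change in pre3. Filip1l, at 20.4, 55.2 and 56.0 CPM in pre2-2 and 4.09, 10.1 and 7.95 CPM in pre3, had nearly the same relative increase in both lines.

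Collagens and other matrix proteins gave the largest number of calls of any list in the fit without the block. With it, 25 of the 38 matrix genes and 32 of the 38 antiviral effectors described below were called higher at the control siRNA in pre2-2. Col1a1, the main chain of type I collagen, stood at 758, 2037 and 1537 CPM in pre2-2 and at 365, 480 and 461 CPM in pre3. Sparc, a collagen-binding matrix protein, stood at 414, 975 and 939 CPM in pre2-2 and at 175, 239 and 242 CPM in pre3. Both genes were thus higher in the transfected libraries of either line, with log2 changes of 1.02 to 1.42 for Col1a1 in pre2-2 and of 0.34 to 0.39 in pre3. Col4a2, a basement membrane collagen, stood at 183, 415 and 391 CPM in pre2-2 and at 294, 313 and 379 CPM in pre3, so its untransfected pre2-2 library was the lowest of all 6. Timp3, an inhibitor of metalloproteinases, stood at 196, 382 and 479 CPM in pre2-2 and at 226, 162 and 222 CPM in pre3. Its interaction was -1.39 (SE 0.29, edgeR adjusted p = 0.628; 1.28e-15 with the replicate block), the smallest block p among the matrix genes named. Of 38 tested matrix genes, 13 rose in pre2-2 and 0 in pre3 in the fit without the block. With the block, 7 were called higher and 1 lower at the control siRNA in pre3, against 0.461% higher over all genes tested. Col1a1 and Sparc were among those called higher there. In pre2-2, 34 were higher in both transfected libraries, and in pre3, 22. The median changes were 0.73 and 0.99 in pre2-2 and 0.07 and 0.43 in pre3, and 16 had a lower change in pre3 with the replicate block.

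The enzymes that crosslink collagen were higher in the same libraries. Lox, lysyl oxidase, stood at 60.3, 225 and 164 CPM in pre2-2 and at 23.5, 33.6 and 26.5 CPM in pre3, and rose 3.73- and 2.72-fold in pre2-2 (edgeR adjusted p = 0.0144). Its interaction was -1.36 (SE 0.40, adjusted p = 0.902; 0.00324 with the replicate block). Loxl1 and Loxl2 also rose in pre2-2, and Loxl2 stood at 166, 163 and 168 CPM in the 3 pre3 libraries. The hydroxylase P4ha1, which modifies collagen prolines, went a different way, at 66.2, 85.8 and 71.6 CPM in pre2-2 and 151, 110 and 108 CPM in pre3, and passed no test within a line. Of 21 tested collagen-modifying enzymes, 18 were higher in both transfected pre2-2 libraries and 8 in both transfected pre3 libraries.

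Integrins and mesenchymal regulators followed with fewer calls. Itga5 and Itgb1, which pair as the main fibronectin receptor, both rose in pre2-2. Itga5 stood at 154, 323 and 348 CPM there and at 90.9, 101 and 118 CPM in pre3, and Itgb1 at 575, 914 and 1069.5 CPM there and at 566, 552 and 606 CPM in pre3. These 2 were the only called members of both the 25 integrins and laminins and the 25 mesenchymal transition genes tested. All 25 mesenchymal transition genes were higher in both transfected pre2-2 libraries, against 13 in pre3, with median changes of 0.72 and 0.77 against 0.05 and 0.10. Lama1, a laminin chain of early embryonic basement membranes, had the reverse order, at 60.7, 46.7 and 56.5 CPM in pre2-2 and 17.9, 29.3 and 37.1 CPM in pre3, and passed no test.

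The fibroblast markers are all members of the matrix or mesenchymal transition lists above. The summed level of 10 fibroblast markers was 1512, 3648 and 2975 CPM in untransfected, control siRNA and siTet1 pre2-2 and 768, 943 and 1070 CPM in pre3. All 10 were higher in both transfected pre2-2 libraries and 7 of 10 in both transfected pre3 libraries; none was at 0 in all libraries, while Lum, a fibroblast proteoglycan, was at 0 in both untransfected libraries. Of the 10 markers, 6 are also in the matrix list, and Pdgfra, Thy1, Twist1 and Prrx1 are in the mesenchymal transition list. Their agreement with those lists is thus no separate support. Among the 33 tested matrix genes that are not markers, 10 rose in pre2-2 and the median changes were 0.71 and 1.01 in pre2-2 and 0.04 and 0.37 in pre3. The summed pluripotency markers were 2126 to 2628 CPM in pre2-2 and 6952 to 7996 CPM in pre3, with the untransfected library inside the range of the others in pre2-2 and at its top in pre3. Pou5f1 alone gave 1219 CPM of the sum in untransfected pre2-2 and 6591 CPM in untransfected pre3. Of the other markers above 10 CPM in untransfected pre2-2, Fgf4, Sall4 and Sox2 were lower in untransfected pre3, and Tdgf1 and Dppa5a were higher. Summed markers of other types were 264 to 373 CPM (epithelial), 78.3 to 103 CPM (endothelial), 9.54 to 36.0 CPM (macrophage) and 95.9 to 133 CPM (neural) in pre2-2. In pre3 they were 98.7 to 197, 26.5 to 33.6, 11.7 to 18.0 and 44.4 to 50.7 CPM in the same order. The epithelial sum was highest in the siTet1 library of each line, as were Cdh1 and Epcam. Krt8, Krt18 and Cldn6 were not highest there in either line. The part of cell composition in the matrix and contractile results was not tested, and in bulk RNA fewer cells of a type and less RNA per cell cannot be told apart.

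**Figure D3:**
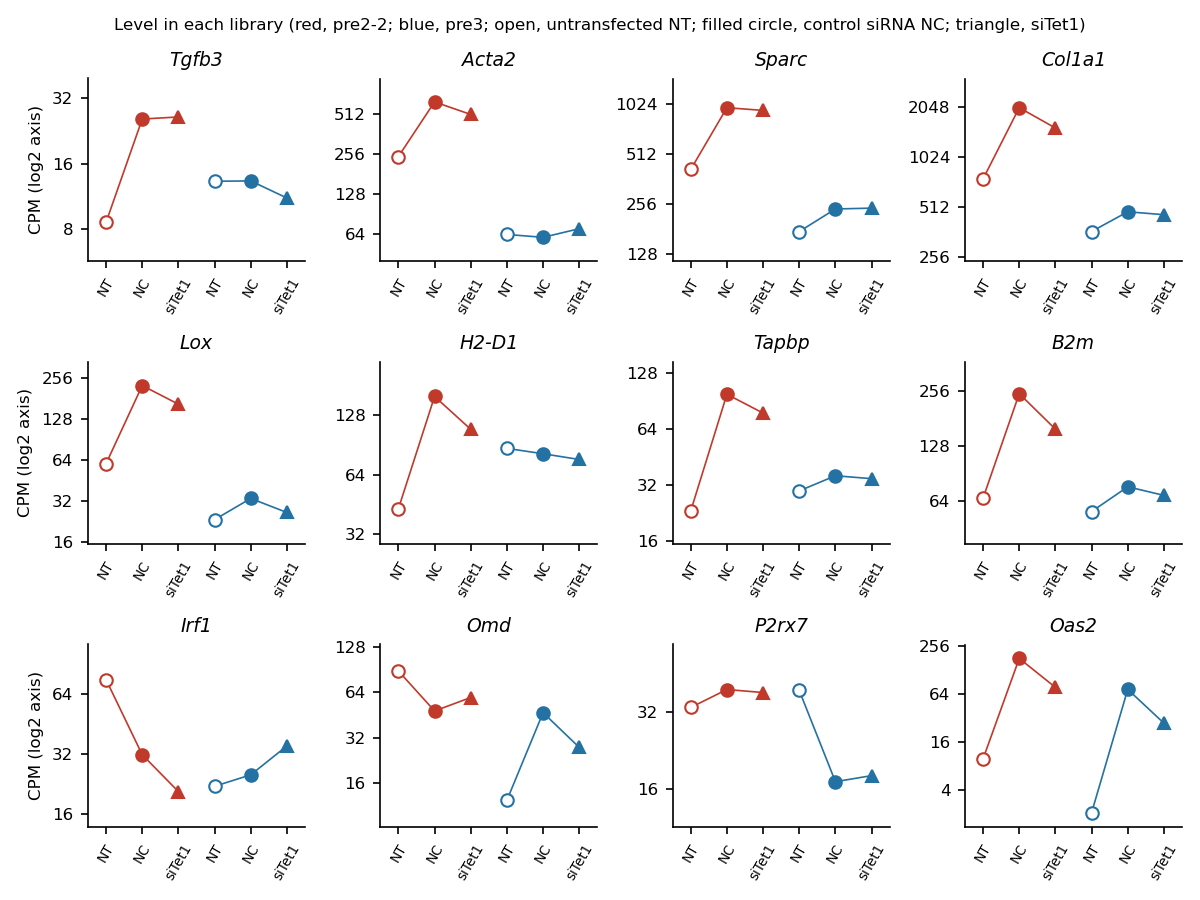
CPM on a log2 axis for 12 genes in the 6 libraries, with pre2-2 in red and pre3 in blue, open circles untransfected (NT), filled circles control siRNA (NC) and triangles siTet1, 1 library per point. In the top row and for Lox, H2-D1, Tapbp and B2m the open red circle is below both filled red symbols while the blue points stay closer together, and Oas2 is higher after transfection in both lines.

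Genes of MHC class I presentation formed a second group with higher levels in transfected pre2-2. H2-D1, a classical class I heavy chain, stood at 43.1, 159 and 108 CPM in pre2-2 and at 86.8, 81.6 and 76.3 CPM in pre3, so untransfected pre2-2 was the lowest library of the 6 and transfected control siRNA pre2-2 the highest. It rose 3.68- and 2.51-fold in pre2-2 (edgeR adjusted p = 0.0218), with an interaction of -1.79 (SE 0.34, adjusted p = 0.628; 2.45e-10 with the replicate block). Tapbp, tapasin, which loads peptides onto class I, stood at 23.1, 97.9 and 77.6 CPM in pre2-2 and at 29.6, 35.7 and 34.5 CPM in pre3, with an interaction of -1.70 (SE 0.35, adjusted p = 0.628; 0.000152 with the replicate block). B2m, the light chain of every class I molecule, stood at 66.6, 248 and 159 CPM in pre2-2 and at 56.2, 76.8 and 68.9 CPM in pre3. These 3 were the called members of 17 tested presentation genes, whose median changes were 0.45 and 0.20 in pre2-2 and 0.04 and 0.16 in pre3. H2-T22, a non-classical class I gene, was higher after transfection in both lines but had the larger change in pre3. It stood at 4.70, 6.52 and 6.43 CPM in pre2-2. In pre3 it had 0 counts untransfected and 14.9 and 14.8 CPM in the transfected libraries, at least 9.72-fold higher against a floor of 3 counts in that 1 library. H2-T22 shares 34.25% and H2-D1 11.89% of 50-base words with other genes, so reads may have been divided between relatives.

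Most antiviral effectors were at higher levels after transfection in both lines. The other interferon-related genes were mixed: of 24 tested RNA sensors, interferon regulatory factors and Stats, 12 were higher and 4 lower in both transfected pre2-2 libraries, and 10 higher and 7 lower in both of pre3. Oas2, an antiviral enzyme activated by double-stranded RNA, stood at 9.80, 181 and 78.0 CPM in pre2-2 and at 2.04, 73.6 and 27.6 CPM in pre3. It was 18.4- and 7.97-fold higher in pre2-2 (edgeR adjusted p = 0.0479) and 36.0- and 13.5-fold higher in pre3, where the untransfected level is about 4 counts and the test did not call it (adjusted p = 0.987). With the replicate block its change at the control siRNA was called in pre2-2 (edgeR adjusted p = 1.84e-65) and in pre3 (2.32e-30). The interaction of Oas2 was 0.85 (SE 1.68, adjusted p = 0.956), too wide to order the lines. Ifitm3, which blocks virus entry at membranes, stood at 203, 497 and 436 CPM in pre2-2 and at 335, 450 and 428 CPM in pre3, and its transfected levels in the 2 lines overlapped. Ifi44 had 0 counts in untransfected pre2-2 and 27.1 and 12.9 CPM after transfection, at least 16.7-fold higher against 3 counts, whereas all 3 pre3 libraries were at or under 1.60 CPM. Of 38 antiviral effectors tested, these 3 rose in pre2-2 and 0 in pre3, while 32 were higher in both transfected libraries of pre2-2 and 26 in both of pre3. With the replicate block 32 were called higher at the control siRNA in pre2-2 and 9 in pre3. In its interaction 1 had a higher and 3 a lower change in pre3. Their median changes were 1.62 and 0.84 in pre2-2 and 0.83 and 0.58 in pre3, the control siRNA library being the higher in each line.

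Irf1, a transcription factor that drives class I genes and is itself induced by interferon, was 1 of the 2 genes that fell in pre2-2. Irf1 stood at 75.2, 31.6 and 20.7 CPM there and at 21.96, 25.1 and 35.0 CPM in pre3, so untransfected pre2-2 was the highest of 6 libraries, its control siRNA library lay within the pre3 range and its siTet1 library just below that range. The fitted change was -1.51 in pre2-2 (SE 0.27, edgeR adjusted p = 0.0451) and 0.45 in pre3 (SE 0.33, adjusted p = 0.987), with an interaction of 1.96 (SE 0.43, adjusted p = 0.686; 4.56e-06 with the replicate block). The other was Cmah, a sialic acid hydroxylase, at 2259, 1419 and 1366 CPM in pre2-2 and 1829.7, 1822 and 1692 CPM in pre3. Among the 12 tested immunity GTPases, a family induced by interferon, none was called in either line by edgeR without the block. At an unadjusted p under 0.05 there were 2 in pre2-2 and 0 in pre3. The replicate block called 4 and 1 higher at the control siRNA. Median changes of the 12 were 0.89 and -1.17 in the control siRNA and siTet1 libraries of pre2-2 and 0.77 and 0.71 in those of pre3.

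Beyond these lists, Shisa5, an endoplasmic reticulum protein of p53-dependent apoptosis, stood at 80.2, 83.7 and 82.7 CPM in pre3, nearly level, against 80.3, 185 and 174 CPM in pre2-2. The untransfected levels of Shisa5 were thus nearly equal in both lines. Rxra, a nuclear receptor that pairs with many others, stood at 18.0, 43.7 and 50.5 CPM in pre2-2 and at 93.0, 84.8 and 95.4 CPM in pre3, so the transfected pre2-2 libraries stayed below all of pre3. Psap and Npc2, lysosomal lipid-handling proteins, rose in pre2-2, at 270, 483 and 500 CPM and 111, 207 and 199 CPM, and were the 2 called of 29 tested lysosome and autophagy genes. Of these 29 genes, 23 were higher in both transfected pre2-2 libraries and 14 in both pre3 libraries.

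Few expressed genes had a large change in pre3 alone, and none passed the interaction test without the block. 0610010B08Rik, a gene without a described function, stood at 44.3, 26.1 and 14.2 CPM in pre2-2 and at 7.15, 50.7 and 72.1 CPM in pre3, so the order of untransfected and transfected libraries was reversed between the lines. Its interaction was 4.21 (SE 0.56, edgeR adjusted p = 0.129; 1.24e-21 with the replicate block), and whether its reads are shared with relatives was not tested. Omd, osteomodulin, a matrix proteoglycan of bone, stood at 88.9, 48.2 and 59.2 CPM in pre2-2 and at 12.3, 46.9 and 27.6 CPM in pre3, with an interaction of 2.30 (SE 0.47, adjusted p = 0.628; 3.89e-08 with the replicate block). Moap1, a Bax-binding modulator of apoptosis, had 0 counts in untransfected pre3 and 8.53 and 25.4 CPM after transfection, at least 11.1-fold higher against 3 counts, and stood at 28.6, 9.03 and 19.3 CPM in pre2-2. In the other direction, P2rx7, an ATP-gated channel, stood at 38.8, 17.1 and 18.0 CPM in pre3 and at 33.3, 39.1 and 38.1 CPM in pre2-2, with an interaction of -1.38 (SE 0.33, adjusted p = 0.784; 0.00796 with the replicate block).

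The position of the untransfected libraries was compared with the other line. Of the 63 genes of the class higher in pre2-2 with a mean of at least 10 CPM, untransfected pre2-2 was above all 3 pre3 libraries for 28 genes, within their range for 7 and below all for 28. Over the 9494 expressed genes it was above for 34.4%, within for 32.9% and below for 32.7%. The class is chosen by a low untransfected pre2-2 library against its transfected ones. Its position against pre3 is therefore in part fixed by that choice, and the shares are given as a description. The position of the transfected pre2-2 libraries is in part fixed in the same way and is not compared. Acta2 and Lox belong to the genes already higher in untransfected pre2-2, and Col4a2, H2-D1 and Tapbp to those that were below pre3 and then exceeded it. Across all genes tested, log2 CPM in untransfected pre2-2 correlated with untransfected pre3 at 0.930, and the transfected pre2-2 libraries did so at 0.891 and 0.889. The transfected pre3 libraries correlated with untransfected pre2-2 at 0.941 and 0.937. These correlations are across genes of single libraries and are given as a description.

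Proliferation genes were mostly at lower levels in transfected pre2-2, where edgeR without the block called none. All 30 tested mitosis genes were lower in both transfected pre2-2 libraries, with medians of -0.32 and -0.56, and 12 were lower in both transfected pre3 libraries, with medians of 0.01 and -0.18. No mitosis gene was called in either line or in the interaction by edgeR, with 17 at an unadjusted p under 0.05 in pre2-2, 0 in pre3 and 0 in the interaction. The replicate block called 5 lower at the control siRNA in pre2-2 and 0 in the interaction. Of 34 tested DNA replication genes, 29 were lower in both transfected pre2-2 libraries and 13 in both pre3 libraries. None of the 34 was called by edgeR (14 at an unadjusted p under 0.05 in pre2-2, 1 in pre3 and 4 in the interaction). The replicate block called 6 lower at the control siRNA in pre2-2, 0 in pre3 and 1 in the interaction, with the higher change in pre3. By contrast, all 32 cytosolic ribosomal protein genes tested were lower in all 4 transfected libraries, with medians of -0.20, -0.29, -0.24 and -0.19, so that group gave no difference between the lines. The 37 tested genes of glycolysis and hypoxia had medians of -0.22 in both libraries of pre2-2 and of -0.28 and -0.30 in pre3. Of these genes, 24 were lower in both transfected pre2-2 libraries and 29 in both of pre3. EdgeR without the block called none, with 11 at an unadjusted p under 0.05 in pre2-2 and 14 in pre3. The replicate block called 1 higher and 3 lower at the control siRNA in pre2-2. In pre3 it called 0 higher and 11 lower, against 59 lower over all genes tested. In its interaction 2 had the lower change in pre3.

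**Figure D4:**
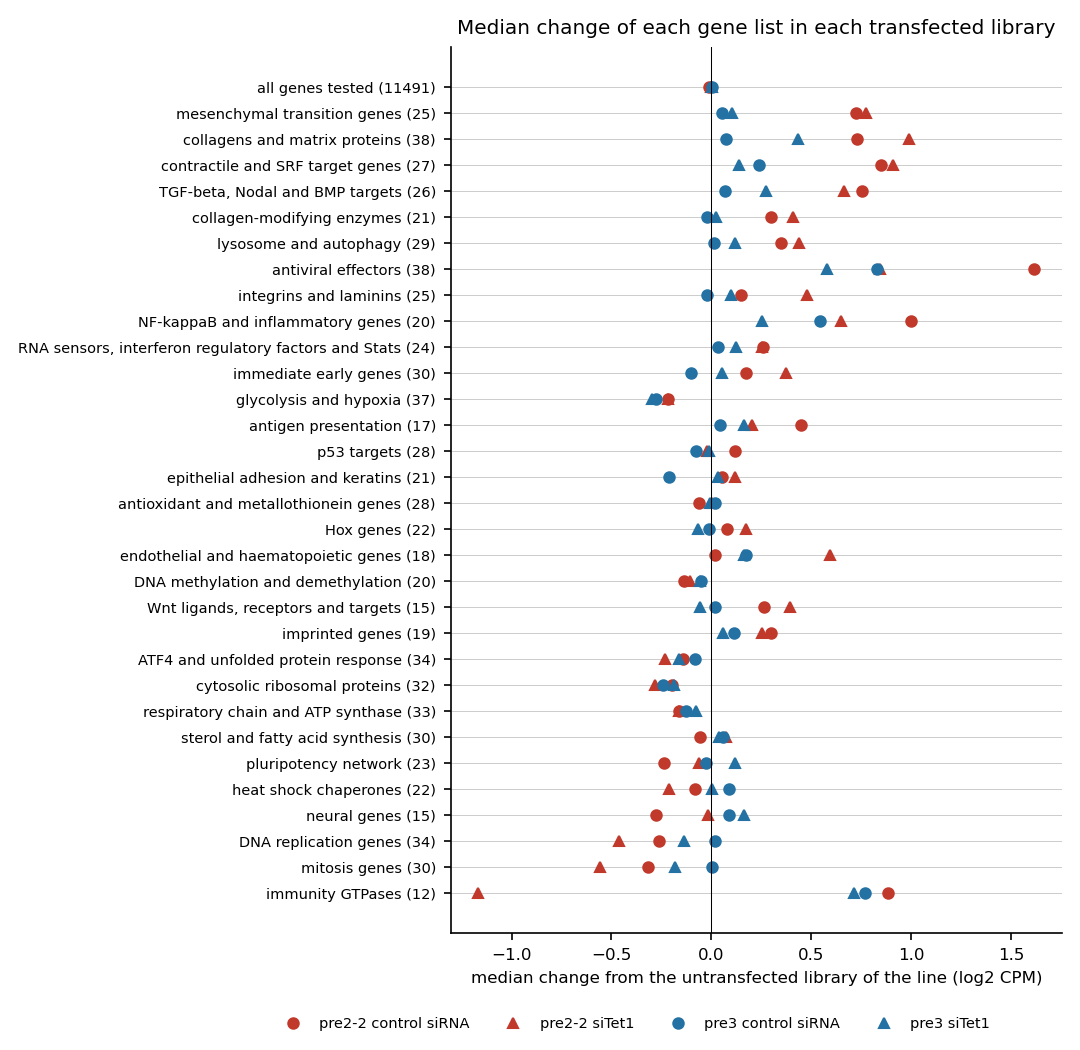
Median log2 change of each gene list with at least 10 tested members (number tested in brackets) in each transfected library, pre2-2 in red and pre3 in blue, circles control siRNA and triangles siTet1, ordered by the median interaction. Matrix, contractile, mesenchymal and TGF-beta lists have red medians of 0.66 to 0.99 and blue medians of 0.05 to 0.43, ribosomal proteins lie between -0.29 and -0.19 in both lines, and mitosis and replication genes are lower in pre2-2.

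Promoters of the classes were searched for 3 short motifs on both strands, over 250 bases before to 50 bases after each RefSeq start. The AP-1 motif was searched as TGANTCA with any base at N, which takes in T there, as in Ifitm3 below. It was present in 18 of 104 promoters (17.3%) of the class higher in pre2-2. Over the 8257 promoters found for the genes tested it was present in 6.04%. The interferon-stimulated response element, searched as GAAA and GAAA with any 2 bases between them, was in 8 of the 104 (7.69%) against 3.61%, and the core of the hypoxia response element ACGTG in 25 (24.0%) against 29.96%. The antiviral list held the interferon motif in 12 of 29 promoters (41.4%). The CArG box, the SRF binding motif, was searched after the values were seen and lay in 6 of 21 promoters of the contractile list (28.6%) but in 2 of 104 of the class higher in pre2-2 (1.92%), against 1.63% of all. Other groups held both motifs too, so neither is given as particular to that class: AP-1 lay in 3 of 16 promoters (18.8%) of the class lower in pre3, 2 of 19 (10.5%) of that higher in pre3 and 7 of 29 (24.1%) of the antiviral list, and the interferon motif in 3 of 19 (15.8%) of the class higher in pre3. A motif match is a description of the sequence and no evidence of binding. The 150 bases before the start of 3 called genes are shown as examples of the interferon and AP-1 motifs, in GRCm38.p6 from RefSeq, 5′ to 3′ on the gene's strand, with the motif in capitals. The motif begins 139 bases before the start in B2m (chr2:122147537-122147686, plus strand), 105 bases before it in Ifitm3 (chr7:141010745-141010894, minus strand) and 121 bases before it in Zyx (chr6:42349678-42349827, plus strand).
B2m: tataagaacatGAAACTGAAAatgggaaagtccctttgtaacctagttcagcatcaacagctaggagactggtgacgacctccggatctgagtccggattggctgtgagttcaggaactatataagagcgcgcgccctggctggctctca
Ifitm3: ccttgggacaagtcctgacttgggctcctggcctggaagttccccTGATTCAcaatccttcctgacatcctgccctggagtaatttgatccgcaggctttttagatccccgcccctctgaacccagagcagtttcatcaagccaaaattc
Zyx: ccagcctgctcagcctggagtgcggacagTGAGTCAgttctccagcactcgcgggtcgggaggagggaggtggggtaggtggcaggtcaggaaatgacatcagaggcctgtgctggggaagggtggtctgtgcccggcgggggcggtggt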

How the data were processed

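Total RNA was prepared with Trizol and TruSeq RNA kits, per the labels' protocols. The authors deposited expected counts per gene, RSEM's estimate of reads from each gene with no normalization, made with RSEM 1.1.21 on mm9, per the submitters' processing notes; aligner and read length are not given in the sources used here. Of these values, 18.7 to 21.4% per library were not whole (tolerance 0.005). RSEM divides reads among similar genes, so near-identical genes can exchange counts between libraries. A table of TPM values for the whole series was not used.

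Expected counts were rounded and fitted in edgeR 4.0.16 (R 4.3.3) with TMM factors, filterByExpr (minimum count 10) and the two-sided quasi-likelihood test with Benjamini-Hochberg adjustment over 11491 genes. The model held line and transfection within line (residual degrees of freedom 2, prior degrees of freedom 7.80). Library totals were 1868640 to 2582803 counts; floors and intervals cover counting error only. The siRNA was also fitted as a replicate block, a term for siTet1 common to both lines (residual degrees of freedom 1, prior degrees of freedom infinite). Both lines received the same siRNAs, so the pairing comes from the labels. Within a line the block fit gives the change at the control siRNA. Alternatives were DESeq2 1.42.0, limma 3.58.1 (voom), other scalings, filters, thresholds and prior counts, and leaving out each transfected library. The code was tested on simulated data.

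The members and the 34 gene lists (964 distinct genes, 791 tested) were chosen with earlier results of these data known. Genes to name were to be the 6 of each class with the smallest interaction p among those called, the 4 antiviral effectors with the smallest p in pre3, and Tet1, Pou5f1, Sox2, Klf4 and Myc. As only Amd2 was called, the 6 of each class with a mean of at least 10 CPM, and 4 of each list with at least 2 calls in pre2-2, with the smallest unadjusted p were added after the values were seen, and so were other genes named. Sequence sharing was computed from GENCODE transcripts on a later build than mm9, by symbol. Some genes that meet these rules are not reported here.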

Additional observations from a re-analysis of the deposited data

Results flagged for a closer look

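For 6 genes the response differed between the lines, either by the interaction test or because both transfected libraries of one line moved up and both of the other moved down. Amd2 had an interaction of -8.32, the only value called, which rests on 1 rounded count in untransfected pre2-2 and was 0.32 with Amd1 added. The other 5 moved in opposite directions in all 4 transfected libraries, and the interaction of none of them was called by edgeR without the block. 0610010B08Rik had an interaction of 4.21 and Omd of 2.30, both higher after transfection in pre3 and lower in pre2-2. Zfp51, a zinc finger gene, had 2.01, with 14.1, 6.52 and 5.05 CPM in pre2-2 and 8.17, 13.3 and 14.3 CPM in pre3. Moap1 had a fitted value of 9.12 that depends on the 0 counts of untransfected pre3 and is no bound. Otop1, a proton channel gene, had -2.22, with Otop1 at 2.74, 7.53 and 8.26 CPM in pre2-2 and 20.9, 12.3 and 13.8 CPM in pre3.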

How the results depend on the processing

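The interaction called 1 gene; DESeq2 called 3, limma-voom 0, the siRNA as replicate block 259, the fit with Amd1 and Amd2 summed (chosen after seeing the data) 0, and leaving out a transfected library 0 to 4. In pre2-2 the count of 84 became 47 with DESeq2, 25 without a filter, 721 with the replicate block and 0 to 138 on leaving out a library. In pre3 the count of 0 became 1 with DESeq2, 112 with the replicate block and 0 to 2 on leaving out a library. The within-line counts of the replicate block are for the change at the control siRNA. A large change of 0.6 gave 483, 118, 140 and 125 genes in the classes pre2-2 higher, pre2-2 lower, pre3 higher and pre3 lower and 50 opposite. A small change of 0.3 gave 100 pre2-2 higher and 38 opposite. A prior count of 0.5 gave 25 pre2-2 lower, 49 pre3 higher and 45 pre3 lower, a prior count of 5 gave 99, 7, 13, 14 and 8 opposite, and a mean of at least 10 CPM (chosen after seeing the data) gave 63, 4, 11, 2 and 6 opposite. Leaving out a library gave 188 to 379, 17 to 106, 37 to 104, 33 to 133 and 42 to 81. Without an untransfected library no value can be estimated.

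Of 61 named genes, 7 reversed the sign of the interaction somewhere, among them Amd2 (0.32 when summed). With library totals alone Klf4 was 0.0013, Myc 0.0093 and Pou5f1 0.015, and without a filter 0.011, 0.019 and 0.025. On leaving out a library Klf4 ran from -0.12 to 0.098, Myc from -0.094 to 0.091, Pou5f1 from -0.065 to 0.071, Parp9 from -0.043 to 0.85, Samd9l from -0.28 to 0.30 and Tet1 from -0.016 to 0.71. With limma-voom Samd9l was -0.0041. The causes were not tested. Other scalings moved the median of all genes by at most 0.0411. Depth limits genes near 3 counts, 1.18 to 1.60 CPM.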

Other observations

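In all 4 transfected libraries 35 genes were at least 2-fold above the untransfected library of their line and 2 at least 2-fold below; 7 of the 35 are among the 90 tested genes of the interferon-related lists. Of the 17 with a mean of at least 10 CPM, several are not interferon genes. Peg10, an imprinted gene of retrotransposon origin, had log2 changes of 1.47 and 3.09 in pre2-2 and 2.02 and 2.62 in pre3. Nrp1, a semaphorin and VEGF co-receptor, had 1.12 and 1.29 in pre2-2 and 1.01 and 1.25 in pre3, and Pcdh7, a protocadherin, had 1.30 and 1.40 against 1.20 and 1.38. Sgk1, a kinase induced by serum and glucocorticoid, had 1.14 and 1.44 against 1.11 and 2.30. Each line's 2 values share 1 untransfected library, and of these 4 genes only Nrp1 and Pcdh7 were called in pre2-2 and none in pre3 by edgeR.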
